A study of Mus musculus with 13 samples.

Results

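The 9 genes described here carry out or control lipolysis, the release of fatty acids and glycerol from stored triglyceride. They were chosen by known role as lipases, lipase cofactors, beta-adrenergic receptors, the insulin-regulated cAMP phosphodiesterase and the glycerol channel of adipocytes. Their Ensembl identifiers were all found among the 33618 genes in the count table. Each of the 9 passed edgeR's filter on low counts, as did 16753 genes in all.

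The question was how their mRNA levels differed when *Lmna*, which encodes lamins A and C, had been targeted in the adipocytes of adult mice. Whole parametrial white adipose tissue (pmWAT), the female gonadal fat pad, was sequenced as bulk mRNA in one library per female mouse. The 7 control mice were *Lmna* fl/fl with no Cre, so loxP sites flanked a pair of *Lmna* exons in their cells too. The 6 iADKO mice were *Lmna* fl/fl and carried *Adipoq*-CreERT2, a tamoxifen-dependent Cre driven by the adiponectin promoter, which is active chiefly in adipocytes, so other cells of the pad were not targeted by design. Every mouse of both genotypes received tamoxifen at 50 mg/kg on 5 consecutive days from 12 to 14 weeks of age, and the tissue was collected 2 weeks posttamoxifen. The controls therefore shared the floxed allele and the tamoxifen but not the Cre. All libraries carried the same batch label.

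In the fat cell, triglyceride is cut in steps. ATGL (*Pnpla2*) removes the first fatty acid, hormone-sensitive lipase (*Lipe*) acts chiefly on the diacylglycerol that remains, and monoacylglycerol lipase (*Mgll*) takes off the last one. CGI-58 (*Abhd5*) activates ATGL and *G0s2* encodes a protein that inhibits it. Noradrenaline acts through beta-adrenergic receptors to raise cAMP and activate protein kinase A, which phosphorylates hormone-sensitive lipase and perilipin, while insulin opposes this by activating the phosphodiesterase encoded by *Pde3b*. The glycerol that is released leaves through the channel encoded by *Aqp7*.

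Between 18854223 and 19776491 reads were counted on genes in each library, so depth was nearly equal. Levels are given as CPM, the counts scaled to a common library size by edgeR's TMM method. *Lmna* itself was at 84.7 ± 7.51 CPM (SD, n = 7) under the fl/fl label and at 96.7 ± 11.5 CPM (SD, n = 6) under the iADKO label, with a log2 fold change of 0.19 (standard error 0.079, edgeR adjusted p = 0.0785), which passed without fl/fl replicate 1 (0.23) or iADKO replicate 6 (0.24). That count covers the whole gene in whole tissue and cannot show the deleted exons alone, so it does not check the labels, and the groups below are called fl/fl and iADKO after their labels. All 8 adipocyte markers examined were lower in iADKO, with a summed level of 16745 to 25525 CPM in fl/fl and 10637 to 18453 CPM in iADKO, and none was at 0 in any library. Of 9 macrophage markers, 7 were higher, with a summed level of 1906 to 5406 CPM in fl/fl and 3178 to 5496 CPM in iADKO. Of the other marker lists, 2 of 7 lymphocyte markers were higher, 2 of 5 endothelial and 3 of 4 brown or beige adipocyte markers were lower, and none of the progenitor, mesothelial, mural or skeletal muscle markers passed. Median log2 fold changes were 0.66 (lymphocyte), -0.02 (endothelial) and -1.20 (brown or beige). These marker counts stand beside 16.3% of all genes tested lower and 14.1% higher. The fl/fl replicate 5 library had the lowest adipocyte sum of its genotype and the highest macrophage sum, and the iADKO replicate 6 library had the highest adipocyte sum and the lowest macrophage sum of its own. Other lists set them apart too. In fl/fl, replicate 5 had the highest progenitor, mesothelial and skeletal muscle sums and the lowest endothelial, mural and brown or beige sums. In iADKO, replicate 6 had the lowest progenitor and mesothelial sums and the highest endothelial sum. Both stood nearest the other genotype in earlier results of these data, and results are given below with and without them. In bulk tissue, fewer adipocytes and less of a given RNA per adipocyte cannot be told apart, and the part of the other cell types in the results below was not tested.

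Of the 9 lipolysis genes, 6 fell in iADKO (*Pnpla2*, *Lipe*, *Mgll*, *G0s2*, *Adrb3* and *Pde3b*) and none rose in edgeR's quasi-likelihood test with Benjamini-Hochberg adjustment over all genes tested. In the whole table, 16.3% of the genes tested were lower in iADKO and 14.1% were higher. *Abhd5*, *Adrb1* and *Aqp7* did not pass the threshold. All 9 log2 fold changes were below 0, with a median of -0.75, beside a median of 0.033 over all genes tested. The 3 largest decreases were those of the beta 3 receptor, ATGL and the phosphodiesterase, and the smallest difference was that of *Abhd5*. For 1 of the 9 genes, *Pde3b*, every iADKO library lay below every fl/fl library, as 3.93% of all genes tested did, and for none did every iADKO library lie above every fl/fl library, as for 2.71%. With both fl/fl replicate 5 and iADKO replicate 6 left out, 8 of the 9 fell (beside 23.3% of all genes, with 19.6% higher) and 5 had every iADKO library below every fl/fl library, beside 14.3% of all genes. Because those libraries were set aside for lying near the other genotype, wider gaps without them follow in part from the choice.

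**Figure D1:**
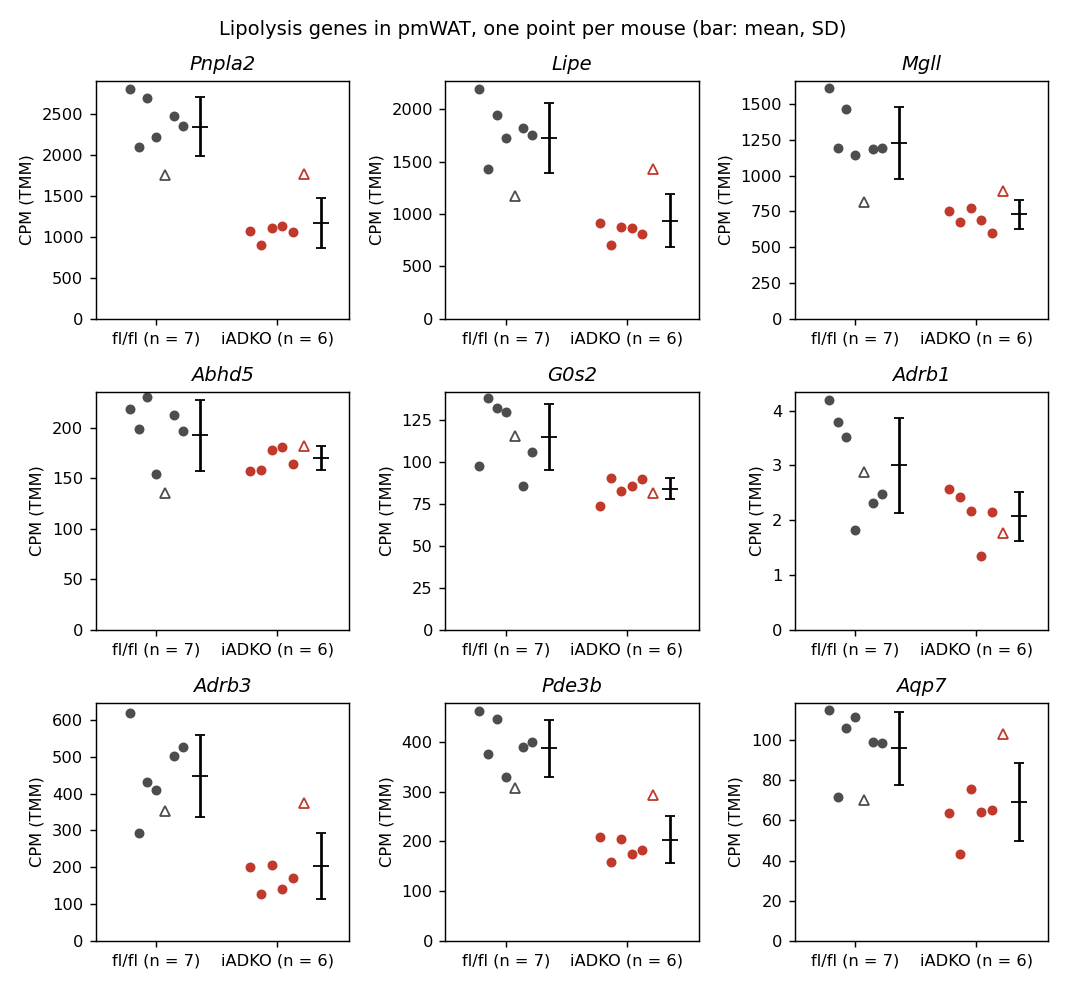
Each panel plots the level of one gene on a linear axis in CPM after TMM normalization, with one point per mouse for fl/fl (grey) and iADKO (red), and the mean and SD as a bar beside each group. The triangles mark fl/fl replicate 5 and iADKO replicate 6, and the triangle of iADKO lies well above the other iADKO points for *Pnpla2* (1775 CPM), *Lipe*, *Adrb3* and *Pde3b*.

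*Pnpla2* (ENSMUSG00000025509, chr7:141034404-141040656 on the plus strand of GRCm39) encodes ATGL. Its level ran from 1761 to 2810 CPM in fl/fl with a median of 2355 CPM, and from 897 to 1775 CPM in iADKO with a median of 1089.7 CPM. The 5 iADKO libraries other than replicate 6 lay below every fl/fl library, and iADKO replicate 6 lay just above fl/fl replicate 5. The fl/fl mean was 2347 ± 359 CPM (SD, n = 7) against 1175 ± 306 CPM (SD, n = 6) for iADKO, so that the fitted level was 50.0% lower in iADKO (log2 fold change -0.999, standard error 0.15, edgeR adjusted p = 0.00064). An exact two-sided permutation test of the log2 CPM over all 1716 splits into 7 and 6 gave p = 0.00117, unadjusted. Without fl/fl replicate 5 and iADKO replicate 6, the log2 fold change was -1.24 (standard error 0.094).

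*Lipe* (ENSMUSG00000003123, chr7:25078880-25098135, minus strand) encodes hormone-sensitive lipase. It was at 1172 to 2195 CPM in fl/fl, with a median of 1753 CPM, and at 709 to 1433 CPM in iADKO, with a median of 871 CPM. Again iADKO replicate 6 was the one library of its genotype that reached the fl/fl range, where it lay just below fl/fl replicate 2. The mean fell from 1722 ± 335 CPM (SD, n = 7) to 935 ± 254 CPM (SD, n = 6), which is 45.7% lower in the fit (log2 fold change -0.88, standard error 0.17, edgeR adjusted p = 0.00218). The exact permutation p was 0.00233. Without fl/fl replicate 5 and iADKO replicate 6 it was at -1.14 as log2 fold change (standard error 0.10).

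*Mgll* (ENSMUSG00000033174, chr6:88652108-88805342, plus strand), the lipase of the last step, had the smallest decrease of the lipases. Its range was 812 to 1611 CPM in fl/fl, with a median of 1192 CPM, and 600.2 to 891 CPM in iADKO, with a median of 719.7 CPM. The overlap came from the same pair of mice, since fl/fl replicate 5 was the lowest control and iADKO replicate 6 was above it. The mean was 1229 ± 254 CPM (SD, n = 7) for fl/fl against 729.9 ± 99.6 CPM (SD, n = 6) for iADKO, which is 40.6% lower in the fit (log2 fold change -0.75, standard error 0.14, edgeR adjusted p = 0.00172). The exact permutation p was 0.00175. With the same 2 mice left out, the log2 fold change was -0.92 (standard error 0.10).

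The cofactors of ATGL differed less between genotypes than ATGL did. *Abhd5* (ENSMUSG00000032540, chr9:122180621-122222936, plus strand) ranged from 135 to 231 CPM in fl/fl, with a median of 199 CPM, and from 157 to 182 CPM in iADKO, with a median of 171 CPM. All 6 iADKO libraries lay inside the fl/fl range, and fl/fl replicates 4 and 5 were below every iADKO library. Its mean of 193 ± 35.0 CPM (SD, n = 7) for fl/fl against 170.3 ± 11.6 CPM (SD, n = 6) for iADKO gave a difference of -0.18 as log2 fold change (standard error 0.11), which did not pass the threshold (edgeR adjusted p = 0.233, exact permutation p = 0.218). Leaving out fl/fl replicate 5 alone gave a log2 fold change of -0.24 that did pass it (edgeR adjusted p = 0.0345), and leaving out iADKO replicate 6 as well gave -0.29.

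*G0s2* (ENSMUSG00000009633, chr1:192949563-192956177, minus strand), the gene of the ATGL inhibitor, fell in iADKO. It was at 85.7 to 138 CPM in fl/fl, with a median of 115 CPM, and at 73.5 to 90.5 CPM in iADKO, with a median of 84.2 CPM. In 6 of the 7 fl/fl libraries *G0s2* was above every iADKO library, and the exception was fl/fl replicate 6, the lowest control. The mean went from 115 ± 19.5 CPM (SD, n = 7) to 83.9 ± 6.24 CPM (SD, n = 6), a decrease of 27.0% in the fit (log2 fold change -0.45, standard error 0.10, edgeR adjusted p = 0.00521, exact permutation p = 0.00466). Here iADKO replicate 6 was not the highest library of its genotype, unlike in the lipase genes, and without it and fl/fl replicate 5 the log2 fold change was -0.47 (standard error 0.12).

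The 250 bases upstream of the start of the canonical transcript are shown for these genes of the ATGL activator and inhibitor, whose windows hold no annotated exon of their own gene. Both are read 5′ to 3′ on the strand of the gene from GRCm39 with GENCODE vM39 starts, and capitals mark a match to a motif searched on both strands.
Abhd5 upstream, chr9:122180371-122180620, plus strand: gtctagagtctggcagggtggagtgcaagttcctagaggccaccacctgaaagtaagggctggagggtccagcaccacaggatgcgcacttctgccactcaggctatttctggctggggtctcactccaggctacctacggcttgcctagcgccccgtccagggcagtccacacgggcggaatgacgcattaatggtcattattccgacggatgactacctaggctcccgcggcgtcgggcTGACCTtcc
G0s2 upstream, chr1:192955526-192955775, minus strand: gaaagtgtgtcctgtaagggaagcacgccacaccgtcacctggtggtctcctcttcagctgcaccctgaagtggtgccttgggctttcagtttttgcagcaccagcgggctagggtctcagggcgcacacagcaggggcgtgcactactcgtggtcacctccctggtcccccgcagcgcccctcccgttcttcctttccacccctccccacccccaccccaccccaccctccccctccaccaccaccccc
The capitals in the *Abhd5* window are the nuclear receptor element AGGTCA, read on the opposite strand, at positions -9 to -4 from the start. The *G0s2* window held no match to any of the 5 motifs searched, which were the cAMP response element TGACGTCA, AGGTCA, the C/EBP element TTGCNNAA, the E-box CACGTG and the TATA box TATAAA. Among the 9 windows, AGGTCA was in 2 (*Abhd5* and *Aqp7*), beside 12.5% of 17952 windows of protein-coding genes. TTGCNNAA was in 1 (*Adrb3*), beside 8.8%, and CACGTG was in 1 (*Mgll*), beside 7.0%. TGACGTCA and TATAAA were in none of the 9, beside 1.8% and 9.1% of all windows. The windows of *Adrb3* and *Pde3b* lay wholly within annotated exons of their own gene (250 bases). Those of *Pnpla2* (185 bases), *Mgll* (102 bases) and *Aqp7* (50 bases) lay there in part. The matches are letters in a window of fixed length and say nothing of binding.

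Of the receptors, *Adrb3* had the largest decrease of the 9 genes. *Adrb3* (ENSMUSG00000031489, chr8:27715443-27740925, minus strand) encodes the beta 3 receptor, the main beta-adrenergic receptor of mouse fat cells. Its level was 294 to 619.7 CPM in fl/fl, with a median of 430.1 CPM, and 126 to 376 CPM in iADKO, with a median of 186 CPM. All iADKO libraries but replicate 6 were below every fl/fl library, and iADKO replicate 6 was above fl/fl replicates 2 and 5. The mean fell from 448 ± 110.4 CPM (SD, n = 7) to 204 ± 89.9 CPM (SD, n = 6), a level 54.5% lower (log2 fold change -1.14, standard error 0.25, edgeR adjusted p = 0.0047, exact permutation p = 0.00291). Without fl/fl replicate 5 and iADKO replicate 6 the log2 fold change was -1.47 (standard error 0.19).

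*Adrb1* (ENSMUSG00000035283, chr19:56710631-56721545, plus strand) encodes the beta 1 receptor and was by far the least abundant of the 9. Only 28 to 73 reads per library were counted on it, so its counting error is larger than that of the other genes. It was at 1.83 to 4.20 CPM in fl/fl, with a median of 2.88 CPM, and at 1.34 to 2.58 CPM in iADKO, with a median of 2.16 CPM. The groups overlapped over much of their range, and 3 of the 7 fl/fl libraries were within it. A mean of 3.00 ± 0.862 CPM (SD, n = 7) for fl/fl against 2.07 ± 0.452 CPM (SD, n = 6) for iADKO was 30.8% lower in the fit (log2 fold change -0.53, standard error 0.21, edgeR adjusted p = 0.064), short of the threshold. The exact permutation p was 0.042 before any adjustment. The call turned on fl/fl replicate 4, the lowest control, without which the log2 fold change was -0.62 (edgeR adjusted p = 0.03), and DESeq2, which called 19.1% of all genes lower and 15.0% higher, called this one lower with all libraries (log2 fold change -0.55, adjusted p = 0.0373). Leaving out fl/fl replicate 5 and iADKO replicate 6 gave -0.52 (standard error 0.23, edgeR adjusted p = 0.0828).

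*Pde3b* (ENSMUSG00000030671, chr7:114013685-114138486, plus strand), whose product breaks down cAMP on an insulin signal, was the one gene of the 9 with no overlap between genotypes. The fl/fl libraries held 307 to 462 CPM, with a median of 389 CPM, and the iADKO libraries 159 to 293 CPM, with a median of 193 CPM. The gap was narrow and lay between fl/fl replicate 5 at 307 CPM and iADKO replicate 6 at 293 CPM. The mean fell by 47.3% in the fit, from 387 ± 56.4 CPM (SD, n = 7) to 204 ± 47.6 CPM (SD, n = 6), with -0.93 as log2 fold change (standard error 0.14, edgeR adjusted p = 0.000538). Its exact permutation p of 0.000583 is the smallest that 1716 splits can give. Without the libraries on either side of the gap, the log2 fold change was -1.13 (standard error 0.092).

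*Aqp7* (ENSMUSG00000028427, chr4:41032835-41048211, minus strand), the glycerol channel, ran from 69.9 to 115 CPM in fl/fl, with a median of 99.0 CPM, and from 43.3 to 103 CPM in iADKO, with a median of 64.6 CPM. Of the controls, fl/fl replicates 2, 5, 6 and 7 lay inside the iADKO range, and iADKO replicates 3 and 6 lay inside the fl/fl range. The mean of 95.8 ± 18.1 CPM (SD, n = 7) for fl/fl against 69.1 ± 19.5 CPM (SD, n = 6) for iADKO was 27.9% lower in the fit (log2 fold change -0.47, standard error 0.18, edgeR adjusted p = 0.0573), short of the threshold. The exact permutation p was 0.0297, unadjusted. *Aqp7* passed when any of 3 libraries was left out, with log2 fold changes of -0.53 without fl/fl replicate 2, -0.53 without fl/fl replicate 5 and -0.62 without iADKO replicate 6 (edgeR adjusted p = 0.0408, 0.0287 and 0.00873), and with both of the latter left out it was at -0.71. DESeq2 called it lower with all libraries (log2 fold change -0.49, adjusted p = 0.0236).

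Annotated genes on the opposite strand share exon bases with 6 of the 9 genes and are in the count table. The shared bases ran from 119 (*Lamb3* with *G0s2*) to 2540 (*Gm45470* with *Adrb3*). Their counts, summed over libraries, were 0.372% to 5.12% of those of the lipolysis gene, the highest being *Lamb3* against *G0s2*. These shares do not show how reads on the shared bases were assigned, or whether any were left out. The libraries were strand-specific, but the strand setting of the counting is not given in the sources used here.

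Per kilobase of canonical transcript, the lipases stood far above the other genes in both genotypes. The mean level in fl/fl was 1139 CPM per kb for *Pnpla2*, 439 for *Lipe* and 334 for *Mgll*, and in iADKO it was 569.9, 239 and 198 CPM per kb. In fl/fl the order went on with *Adrb3* at 105 CPM per kb, *G0s2* at 67.7, *Abhd5* at 60.0, *Pde3b* at 58.2, *Aqp7* at 37.6 and *Adrb1* at 1.02. The middle of that order is not settled by these mice, since *G0s2* was above *Abhd5* in 5 of 7 fl/fl libraries and *Abhd5* above *Pde3b* in 4 of 7. In iADKO the middle order was *Abhd5* at 53.1 CPM per kb, *G0s2* at 49.4, *Adrb3* at 47.8 and *Pde3b* at 30.7. *Adrb3*, above *G0s2* in 6 of 7 fl/fl libraries, was above it in 2 of 6 iADKO libraries. Dividing by the union of all annotated exons left the first 3 and the last 2 places as they were and reordered the middle in both genotypes. By that length *Adrb3* kept rank 4 in iADKO too, at 35.6 CPM per kb against 23.8 for *Abhd5* and 18.4 for *G0s2*. Its place below those genes in iADKO therefore depends on the length used.

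The mice ranked alike across most of these genes. In fl/fl, replicate 5 was the lowest library for 6 of the 9 genes (*Pnpla2*, *Lipe*, *Mgll*, *Abhd5*, *Pde3b* and *Aqp7*) and replicate 1 the highest for 7. In iADKO, replicate 6 was the highest for 7, all but *G0s2* and *Adrb1*, and replicate 2 the lowest for 5. The mean log2 level of the 8 adipocyte markers, centred on the 13 libraries, followed the same mice. It was 0.66 in fl/fl replicate 1, -0.10 in fl/fl replicate 5 and 0.32 to 0.48 in the other controls. In iADKO it was 0.04 in replicate 6 and -0.67 to -0.39 in the others.

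**Figure D2:**
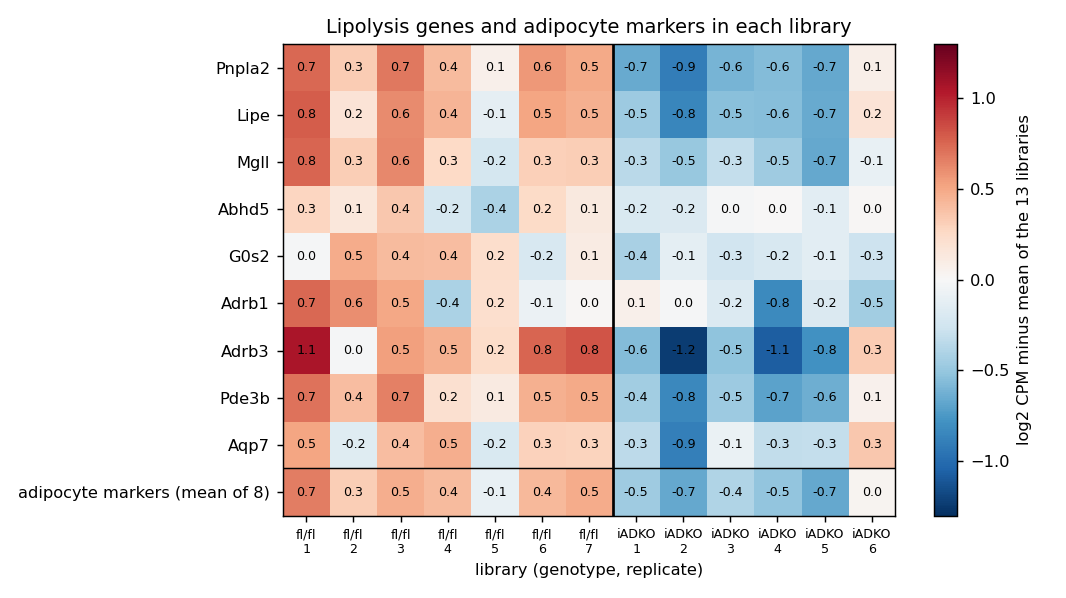
The heat map gives the log2 CPM of each gene in each of the 13 libraries minus that gene's mean over the libraries (red above it, blue below it, values printed in the cells), with the mean of 8 adipocyte markers in the last row. The iADKO replicate 6 column is pale for most genes and for the markers (0.04 for the marker mean), while the *Abhd5*, *G0s2* and *Adrb1* rows differ from the lipase rows.

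Ratios between genes within a library do not depend on how libraries are scaled, and 5 were examined with exact two-sided permutation tests and Benjamini-Hochberg adjustment over the 5. The log2 ratio of *Abhd5*, the activator, to *Pnpla2* ran from -3.85 to -3.40 in fl/fl and from -3.28 to -2.50 in iADKO. Every iADKO library was above every fl/fl library, with a difference of 0.86 between means (exact permutation p = 0.000583, adjusted 0.00291). Of the 16752 other genes tested, 35.9% had a log2 ratio to *Pnpla2* that was likewise higher in every iADKO library than in every fl/fl library. The median difference over those genes was 1.05, above that of *Abhd5*, so the separation is not particular to the activator.

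For the inhibitor, the log2 ratio of *G0s2* to *Pnpla2* ran from -4.86 to -3.93 in fl/fl and from -4.45 to -3.31 in iADKO, with overlap. Its difference was 0.58 (exact permutation p = 0.0233, adjusted 0.0291). The differences of the other lipases were smaller, with a difference of 0.12 for *Lipe* against *Pnpla2* (exact permutation p = 0.0117, adjusted 0.0291) and 0.28 for *Mgll* against *Pnpla2* (exact permutation p = 0.0186, adjusted 0.0291). The log2 ratio of *Adrb1* to *Adrb3* was 0.70 higher in iADKO (exact permutation p = 0.0594, adjusted 0.0594), which did not pass. The 3 ratios to *Pnpla2* of *G0s2*, *Lipe* and *Mgll* differed by less than the median of 1.05 over all genes. Single mice decided these last 4 ratios. The *G0s2* ratio did not pass without fl/fl replicate 1 (0.50), 6 (0.50) or 7 (0.56) or iADKO replicate 2 (0.49) or 5 (0.54). The *Lipe* ratio did not pass without fl/fl replicate 6 (0.13) or 7 (0.13) or iADKO replicate 2 (0.13). The *Mgll* ratio did not pass without fl/fl replicate 5 (0.26), 6 (0.26) or 7 (0.28) or iADKO replicate 2 (0.23), and the receptor ratio passed without fl/fl replicate 2 (0.86) or iADKO replicate 6 (0.93). The *Abhd5* ratio passed in all 13 fits that left out 1 mouse, with differences of 0.81 to 0.97.

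**Figure D3:**
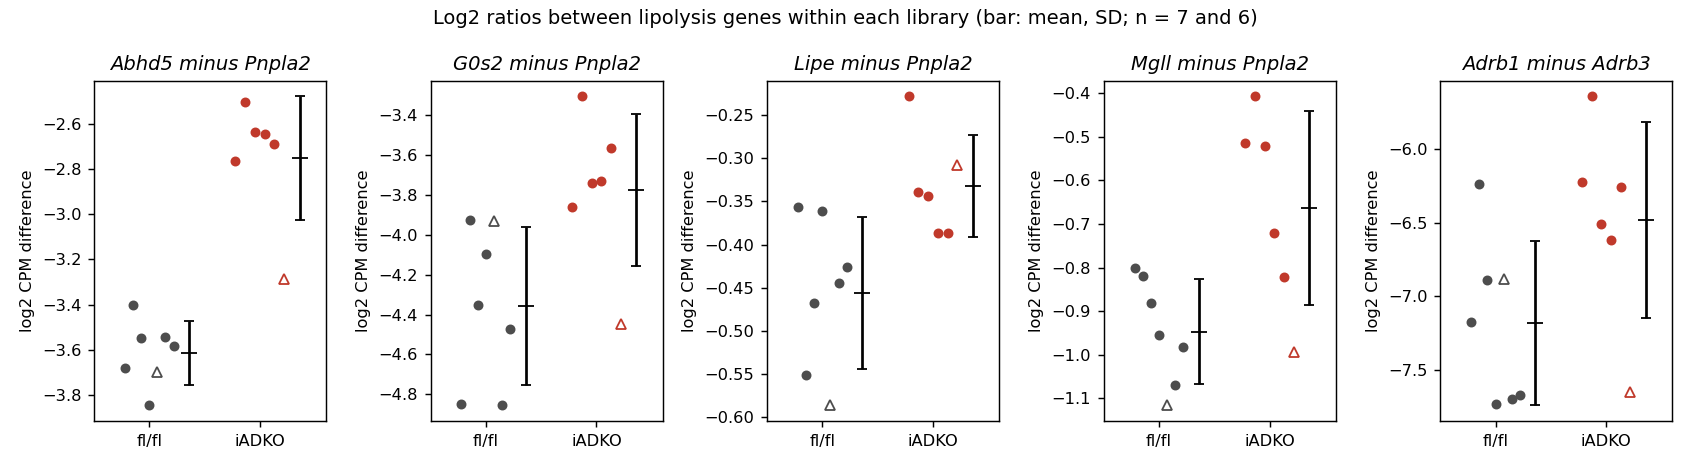
Each panel plots the difference in log2 CPM between a pair of genes within a library, one point per mouse for fl/fl (grey) and iADKO (red), with the mean and SD as a bar, and triangles for fl/fl replicate 5 and iADKO replicate 6. The vertical axes differ between panels and do not start at 0. The genotypes overlap in 4 panels and are apart in the *Abhd5* minus *Pnpla2* panel, as they are for 35.9% of all genes set against *Pnpla2*, and iADKO replicate 6 at -3.28 is the nearest iADKO point to the controls there.

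Scaling the libraries so that the mean log2 level of 8 adipocyte markers is equal in all of them gives each gene relative to other adipocyte RNA. No lipolysis gene is among the markers. This scaling moved the median log2 fold change of all genes from 0.033 to 0.86, so that 87.6% of the genes tested were higher in iADKO and 0.639% were lower. Against that background, 1 of the 9 genes was lower (*Adrb3*) and 2 were higher (*Abhd5* and *Aqp7*). *Pnpla2*, *Lipe*, *Mgll* and *Pde3b* did not pass, with log2 fold changes of -0.19, -0.07, 0.09 and -0.12 (edgeR adjusted p = 0.0816, 0.522, 0.412 and 0.267). Nor did *G0s2* and *Adrb1*, at 0.37 and 0.31 (edgeR adjusted p = 0.0593 and 0.235).

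*Abhd5* had a log2 fold change of 0.67 on the marker scale (standard error 0.12, edgeR adjusted p = 9.95e-05), less than the shift of the median gene. Its scaled log2 level was 6.86 to 7.37 in fl/fl and 7.47 to 8.03 in iADKO, with no overlap, as for 22.4% of all genes. *Aqp7* had a log2 fold change of 0.34 (standard error 0.12, edgeR adjusted p = 0.0153), with scaled log2 levels of 5.85 to 6.39 and 6.10 to 6.69 that overlapped. Both calls held in all 13 fits that left out 1 mouse. *Adrb3* was at -0.36 (standard error 0.15, edgeR adjusted p = 0.0381), and this call did not hold without fl/fl replicate 1 (-0.32), 6 (-0.33) or 7 (-0.33), nor without iADKO replicate 1 (-0.37), 2 (-0.29), 3 (-0.36), 4 (-0.29) or 5 (-0.37). Leaving out iADKO replicate 6 added *Pnpla2* to the lower genes (-0.22) and *G0s2* to the higher ones (0.46), and *G0s2* was also higher without fl/fl replicate 2 (0.43) or 5 (0.46). The marker scaling raises all genes by about the same amount, so a change of sign between the scalings follows from that shift and is no result about a gene.

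**Figure D4:**
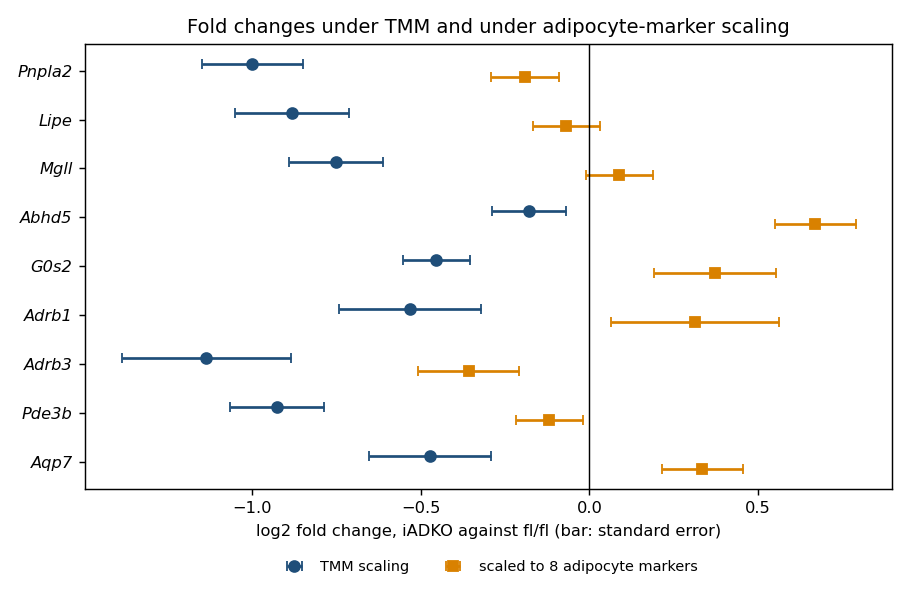
The log2 fold change of each gene in iADKO against fl/fl is plotted on a linear axis under TMM (blue circles) and after scaling to 8 adipocyte markers (orange squares), with standard errors from edgeR as bars. All 9 circles lie left of 0, whereas on the marker scale *Abhd5* (0.67) and *Adrb3* (-0.36) are the outermost squares.

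The library names carry numbers, grouped here into series of 706 and 707, 722 to 727, 747 to 765, and 974 and 975. Of these, 2 hold both genotypes. The other series hold only fl/fl (replicates 6 and 7) or only iADKO (replicates 3 and 5), so series and genotype are partly confounded. What the numbers stand for is not given in the sources used here, and neither is the grouping. In particular, iADKO replicate 1 (765) could be placed apart from the others of its series (747 to 750). That would leave iADKO replicate 2 as the only iADKO library there. The within-series differences and the block fit below depend on the grouping used and were not repeated with another. Within the series of 3 fl/fl and 2 iADKO libraries (fl/fl replicates 1, 2 and 3, iADKO replicates 1 and 2), the difference of mean log2 CPM was -1.36 for *Pnpla2*, -1.19 for *Lipe*, -0.99 for *Mgll*, -1.43 for *Adrb3* and -1.23 for *Pde3b*. Within the series of 2 and 2, which holds both fl/fl replicate 5 and iADKO replicate 6, the same differences were -0.48, -0.35, -0.30, -0.72 and -0.49. *G0s2* (-0.57 and -0.55) and *Adrb1* (-0.59 and -0.54) differed by nearly equal amounts in the 2 series, *Aqp7* was at -0.86 and -0.12, and *Abhd5* had opposite signs (-0.45 and 0.33). The *Abhd5* to *Pnpla2* ratio was 0.91 and 0.81 higher in iADKO within the same series, and the *G0s2* to *Pnpla2* ratio was 0.79 higher in the first and 0.07 lower in the other (-0.07). With the series as a block in edgeR, *Adrb3* did not pass (log2 fold change -1.04, adjusted p = 0.0643) and *Adrb1* did (log2 fold change -0.61, adjusted p = 0.0375). The count of genes that fell was again 6, beside 7.17% of all genes lower and 4.68% higher. Libraries of the series with a single genotype add nothing to the genotype contrast in that fit, so it rests on fewer mice. Whether the smaller share of calls comes from that or from the series was not tested.

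The genes whose pattern over the 13 libraries was most like that of *Pnpla2* were ranked by the root-mean-square difference of centred log2 CPM among 8918 genes whose average log2 CPM was 4 or more. The nearest were *Car5b*, a mitochondrial carbonic anhydrase (0.0805), *Gys1*, glycogen synthase 1 (0.0887), *Dgat1*, which completes triglyceride synthesis (0.0936), *Lipe* (0.0937) and *Car3*, a cytosolic carbonic anhydrase (0.0953). The median gene was at 0.58. Of the other lipolysis genes, *Pde3b* was at rank 7, *Mgll* at 160, *Adrb3* at 322, *Aqp7* at 463, *G0s2* at 1830 and *Abhd5* at 2005. *Adrb1* was below the level needed for this ranking. These ranks describe shared variation over the same libraries and depend on the genotype difference as well as on the spread within genotypes.

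Around these genes, a wider list of 64 genes of the pathway held 63 that were tested, with a median log2 fold change of -0.23. Of these, 30 fell, 5 rose and 28 did not pass, beside 16.3% of all genes lower and 14.1% higher. The same shares are the background of the counts by sublist below. The list was drawn up by role, but with earlier results of these data known. With the number series as a block, 16 fell and 1 rose, beside 7.17% and 4.68% of all genes. On the marker scale 1 fell (*Cidec*) and 40 rose, beside 0.639% and 87.6% of all genes. *Cidec* is itself among the adipocyte markers that set this scale, so its call is not independent of the scale. Among other receptors that stimulate lipolysis, 3 of 6 fell, namely the growth hormone receptor *Ghr* (log2 fold change -1.01), the ACTH receptor *Mc2r* (-0.93) and the thyrotropin receptor *Tshr* (-0.88). Of 7 inhibitory receptors, 4 fell, which were *Npr3*, which clears natriuretic peptides (-1.20), the adenosine receptor *Adora1* (-0.95), the lactate receptor *Hcar1* (-0.95) and the prostaglandin receptor *Ptger3* (-0.69).

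Downstream of the receptors, 3 of 10 G protein and adenylyl cyclase genes fell (*Gnai1* -0.60, *Adcy5* -0.51 and *Adcy6* -0.39 on the log2 scale) and *Adcy7* rose (0.69). Of 7 protein kinase A genes, the regulatory subunit *Prkar2b* (-0.92) and the catalytic subunit *Prkaca* (-0.53) fell and *Prkar1b* rose (0.32). On the insulin arm that leads to *Pde3b*, 5 of 9 fell, namely *Akt2* (-0.64), the insulin receptor *Insr* (-0.59), *Irs1* (-0.55), *Pik3r1* (-0.50) and *Pik3cb* (-0.44), and the PI3K catalytic gene *Pik3cd* rose (0.59). Of 7 other phosphodiesterase genes, *Pde8a* fell (-0.28) and *Pde7a* rose (0.33). *Adcy7* and *Pik3cd* are known for expression in leukocytes, and the macrophage markers were higher in iADKO, and their part in these increases was not tested.

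All 4 other lipase genes tested fell, namely *Pnpla3* (-1.09), the carboxylesterases *Ces1d* (-1.01) and *Ces1f* (-0.98) and the monoacylglycerol lipase *Abhd6* (-0.64), each a log2 fold change. Of 7 droplet proteins and lipase partners, 5 fell, namely *Cidec* (-1.11), *Plin4* (-1.04), *Plin1*, the perilipin that holds CGI-58 at rest (-0.81), *Fabp4* (-0.61) and *Cav1* (-0.54). *Cidec*, *Plin1* and *Fabp4* are also among the 8 adipocyte markers. In glycerol and fatty acid handling, *Acsl1*, the acyl-CoA synthetase (-0.96), *Gpd1*, which makes glycerol 3-phosphate (-0.77), and the aquaporin gene *Aqp11* (-0.55) fell, and glycerol kinase *Gk*, low in white fat, rose (0.45).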

How the data were processed

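Bulk RNA-Seq of pmWAT from 7 fl/fl and 6 iADKO mice was analysed, and genotypes and replicate numbers came from the sample labels. The authors deposited a table of unnormalized read counts for each gene and a table of log2 values made from them with DESeq2's rlog. Per the submitters' notes, reads were checked with FastQC 0.12.1 and aligned with STAR 2.7.11a to mm39. The counting tool and annotation are not given in the sources used here. Of 33618 identifiers, 33184 were found in GENCODE vM39, which gave symbols and coordinates. Sequences were read from GRCm39.

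In R 4.3.3, edgeR 4.0.16 (filterByExpr, TMM, robust quasi-likelihood) was fitted on all genes with Benjamini-Hochberg adjustment and a threshold of 0.05. Standard errors came from the fold change and the F statistic. Log2 CPM used a prior count of 2. For marker scaling, library sizes were set so that 8 adipocyte markers (Adipoq, Plin1, Fabp4, Cidec, Pparg, Cebpa, Cfd and Retn) had the same mean log2 level, and the error of that scale is not in the standard errors. Fits were tested on simulated counts. Alternatives were DESeq2's size factors, DESeq2 1.42.0, no filter, at least 10 counts in every library, a replicate or number-series block, limma 3.58.1 on the rlog values, TMM without mitochondrially encoded genes, marker scaling, and libraries left out. The marker scaling of the remaining libraries after leaving mice out, and by 5 markers outside the wider list, was added after seeing the data. Genes named in the wider list are called genes whose average log2 CPM was 1 or more, at most 3 per sublist by size of change, and any count of 5 or fewer. The genes, lists and tests were chosen with earlier results of these data known. The sources used here do not say whether replicate numbers pair the mice. Residual correlations of same-numbered libraries were -0.0265 to 0.217, which cannot decide it, since differently numbered libraries were not compared. Libraries of 1 genotype differed by 8.9 to 98.7 chi-square per degree of freedom, so none was a copy of another of its genotype. Libraries of different genotypes were not compared in this way. The errors given are between mice and cover counting error.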

Additional observations from a re-analysis of the deposited data

Results flagged for a closer look

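In 28 groups of values (each lipolysis gene and each ratio in each genotype), 5 had a library set apart from the rest by Dixon's criterion, which chance alone meets in about 5% of groups. All 5 were iADKO replicate 6. It was at 1775 CPM for *Pnpla2*, 1433 CPM for *Lipe*, 376 CPM for *Adrb3* and 293 CPM for *Pde3b*, each the highest of the 6 iADKO mice, and its log2 ratio of *Abhd5* to *Pnpla2*, -3.28, was the lowest. The groups share this library, so the values are not independent of each other. Its adipocyte marker sum, 18453 CPM, was also the highest of its genotype. Without it the log2 fold changes were -1.16 (*Pnpla2*), -1.04 (*Lipe*), -1.40 (*Adrb3*) and -1.06 (*Pde3b*).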

How the results depend on the processing

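The 6 decreases kept their direction and their side of the threshold under DESeq2's size factors, DESeq2, either filter on low counts, the replicate block, limma, normalization without mitochondrially encoded genes and with each mouse left out, and the cause of the changes below was not tested. On the marker scale, 1 of the 9 genes was lower and 2 were higher, with log2 fold changes of -0.19 (*Pnpla2*), -0.068 (*Lipe*), 0.089 (*Mgll*), 0.67 (*Abhd5*), 0.37 (*G0s2*), 0.31 (*Adrb1*), -0.12 (*Pde3b*) and 0.34 (*Aqp7*). In the wider list 1 was lower and 40 were higher, and of all genes 107 and 14677. Without fl/fl replicate 5 and iADKO replicate 6, the marker scale gave 2 lower and 4 higher of the 9 (0.847% and 90.6% of all genes), TMM gave -0.29 for *Abhd5* and -0.71 for *Aqp7*, both then past the threshold, and the *Adrb1* to *Adrb3* ratio passed at 0.98. With the number series as a block, *Adrb3* no longer passed (-1.04) and *Adrb1* did (-0.61), the wider list had 16 lower and 1 higher, and all genes 1202 and 784. Without a filter the wider list had 3 higher, beside 4.83% of 33618 genes. Within the series of 2 and 2, differences were -0.48 (*Pnpla2*), -0.35 (*Lipe*), -0.30 (*Mgll*), 0.33 (*Abhd5*) and -0.49 (*Pde3b*), and -0.074 for the *G0s2* to *Pnpla2* ratio, and *Pnpla2* was at -1.36 in the series of 3 and 2.

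The replicate number as a block, without fl/fl replicate 7, gave 8 of the 9 lower, with *Adrb1* at -0.56 and *Aqp7* at -0.48 past the threshold. In all, 2454 genes were lower and 2379 higher, but whether the numbers pair the mice is not known. *Adrb1* (-0.55) and *Aqp7* (-0.49) also passed in DESeq2, and *Aqp7* in limma (-0.39).

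With each mouse left out in turn, 6 to 8 of the 9 were lower and none was higher (13.1% to 19.7% and 10.6% to 19.9% of all genes), and 26 to 31 of the wider list were lower and 3 to 6 higher. On the marker scale 0 to 2 of the 9 were lower and 2 to 3 higher (0.498% to 0.733% and 84.1% to 89.4% of all genes). Log2 fold changes ran from -0.24 to -0.13 (*Abhd5*), -0.62 to -0.43 (*Adrb1*) and -0.62 to -0.37 (*Aqp7*), and ratios to *Pnpla2* from 0.49 to 0.72 (*G0s2*, 0.785 without both mice named above), 0.10 to 0.14 (*Lipe*) and 0.23 to 0.35 (*Mgll*), with 0.53 to 0.93 for *Adrb1* to *Adrb3*. Depth limits *Adrb1*, with 28 to 73 reads per library.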
